A study of Mus musculus with 21 samples.

Results

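The genes described here are 9 genes of fetal growth and genomic imprinting, Mest, Hmga2, Lin28b, Igf2bp1, Igf2bp2, Igf2bp3, Igf2, H19 and Plagl1. They were found by symbol, and 8 of the 9 were among the 14265 distinct symbols of the expression table. H19 was not analysed here. Their levels were read in 21 RNA-seq libraries from the spleens of C57BL/6 mice, in 7 groups of 3. Of the groups, 6 were cells bearing both Ter119, an antigen of the red cell lineage, and CD71, the transferrin receptor carried by red cell precursors. They were sorted by CD45, the leukocyte phosphatase that erythroid cells lose as they mature, into CD45+ and CD45- fractions. Each fraction was taken in 3 states, from mice that bore a tumor, from mice with anemia and from newborn (neonatal) mice, so the design compares CD45+ cells with other cell types and across states. The other group was MDSC (myeloid-derived suppressor cells) of the tumor-bearing mice, gated on CD11b and Gr1. The kind of tumor, the cause of the anemia and the ages of the mice are not given in the sources used here, nor is whether the 3 libraries of a group came from separate animals. The p-values below are thus about differences among these libraries, part of which could be technical. All groups share the strain, and the labels name no transgene or deleted allele. The label for tissue is spleen throughout, although the RNA extraction protocol mentions retinas.

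As background, LIN28B is an RNA-binding protein of fetal cells that stops the let-7 microRNAs from being processed to their mature form. Mature let-7 represses messages that carry its seed match, among them those of the chromatin protein HMGA2, of the IGF2BP proteins and of LIN28B itself. In mouse haematopoiesis, Lin28b and Hmga2 are known as parts of the programme that sets fetal stem and progenitor cells apart from adult ones. IGF2BP1, IGF2BP2 and IGF2BP3 bind messenger RNAs, including that of the fetal growth factor IGF2, and act on their stability and translation. Igf2, Mest and Plagl1 are imprinted genes read from the paternal copy, and many genes of this kind are switched down in mouse organs soon after birth. H19 is the maternally expressed RNA next to Igf2. The deposited table has no coordinates. In GENCODE vM21 (GRCm38), Igf2 lies at chr7:142650766-142666816, Mest at chr6:30723547-30748465, Plagl1 at chr10:13060504-13131694 and Lin28b at chr10:45376620-45486395. Hmga2 lies at chr10:120361275-120476469, Igf2bp1 at chr11:95957163-96005940, Igf2bp2 at chr16:22059009-22163299 and Igf2bp3 at chr6:49085223-49214957, and all 8 are protein-coding.

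The let-7 family is shown because its seed links most of these genes. In the RefSeq table for GRCm38.p6, 9 of the 10 named let-7 forms, with 3p strands left out, carry the same seed, which is bases 2 to 8 and is in capitals.
let-7a-5p: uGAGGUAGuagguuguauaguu
let-7d-5p: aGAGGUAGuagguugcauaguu
let-7g-5p: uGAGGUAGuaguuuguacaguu
The match to this seed in a message is CTACCTC, searched on the sense strand only. In the longest 3′ UTR of each gene in GENCODE vM21 (GRCm38), Hmga2 holds 4 matches in 3014 bases, Lin28b holds 4 in 4445 bases and Igf2bp1 holds 4 in 6337 bases. Igf2bp2 holds 1 in 1784 bases and Igf2bp3 holds 1 in 2119 bases. Mest, Igf2 and Plagl1 hold none in this window. Of 20883 genes with a 3′ UTR of at least 20 bases, 8.99% hold at least 1 match and 0.153% hold at least 3, and of the 10165 with at least 1000 bases 15.1% hold at least 1. For each of the 5 genes, the first match followed by A is shown with the bases upstream of it, the match in capitals, all on the minus strand. They lie at chr10:120364224-120364253 (Hmga2), chr10:45381022-45381051 (Lin28b), chr11:95961778-95961807 (Igf2bp1), chr16:22059473-22059502 (Igf2bp2) and chr6:49086787-49086816 (Igf2bp3).
Hmga2: agggggcgccgacattcaatttCTACCTCa
Lin28b: tcccttcacccgggcgggaagtCTACCTCa
Igf2bp1: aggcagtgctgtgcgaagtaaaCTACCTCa
Igf2bp2: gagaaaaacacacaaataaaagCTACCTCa
Igf2bp3: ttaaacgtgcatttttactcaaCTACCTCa
The matches describe the sequence, and neither let-7 itself nor its binding was measured in these libraries.

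The deposited values are log2 expression levels, taken out of the log here. The scale behind the log is not named and is not known to be per length, so levels are compared between groups for 1 gene and not between genes. A blank cell was taken as 0. The summed value per library ranged from 227942 to 349254, and read depth is not known. Haemoglobin genes made up 0.0264% to 46.2% of the sum. Markers of red cell precursors and of other cell types were both present. Summed erythroid markers (12 genes) were at 229 to 1810 in the CD45+ groups and at 4270 to 8220 in the CD45- groups, and summed neutrophil and MDSC markers reached 29900 in tumor CD45+ cells and 12300 in neonatal CD45+ cells. Replicate 3 had the lowest haemoglobin share in each of the 7 groups. In each group it also correlated less with its partners across genes than they did with each other. In tumor CD45+ cells, where replicate 3 correlated least, the values were 0.915 and 0.919, against 0.969.

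Of the 8 genes, 4 separated the 6 neonatal libraries from the other 15 without overlap, namely Lin28b, Igf2bp1, Igf2 and Mest. Hmga2, Igf2bp2, Igf2bp3 and Plagl1 overlapped somewhere, although within the CD45+ fraction only Plagl1 did, and within the CD45- fraction Hmga2 and Igf2bp2 did. The share of all genes that separate the libraries in these ways was not counted. These counts thus describe single genes and cannot be set against a background. The plot of values in each library shows the 8 genes side by side.

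**Figure D1:**
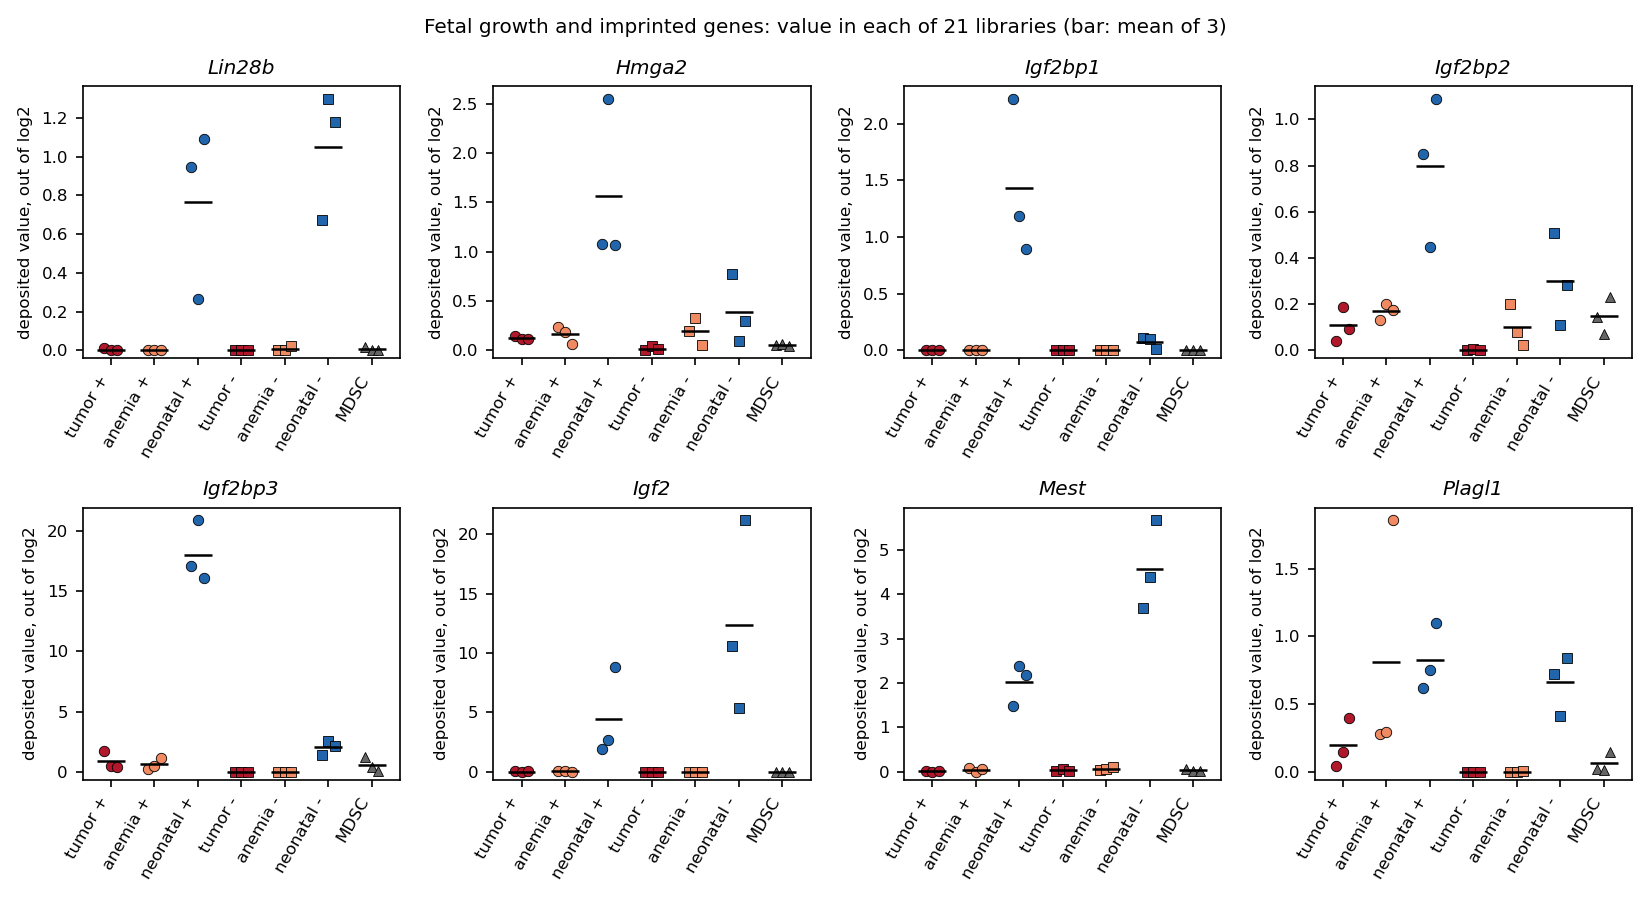
Value of each gene, out of log2, in the 21 libraries, with 1 panel per gene and its own axis; + and - stand for the CD45+ and CD45- fractions, points are libraries and bars are means of 3. Neonatal libraries (blue) stand above all others for Lin28b, Igf2bp1, Igf2 and Mest, Igf2bp3 is highest in neonatal CD45+ cells at 16.1 to 20.9, and 1 anemia CD45+ library is the highest for Plagl1.

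Lin28b was at 0.0115, 0 and 0 in tumor CD45+ cells and at 0 in each anemia CD45+ library, against 0.947, 0.267 and 1.09 in neonatal CD45+ cells. It was at 0 in each tumor CD45- library and at 0, 0 and 0.0196 in anemia CD45- cells, against 0.673, 1.3 and 1.18 in neonatal CD45- cells. It was listed at 0 in 12 of the 15 libraries that are not neonatal, MDSC included, and each of the 6 neonatal libraries had a value. On the scale of log2(value + 1), which understates the change of a gene with values this low, its difference from neonatal cells was -0.78 ± 0.17 (SE) for tumor CD45+ cells and -0.79 ± 0.17 for anemia CD45+ cells, with limma adjusted p of 0.0094 and 0.0035. In CD45- cells it was -1.02 ± 0.17 for tumor and -1.01 ± 0.17 for anemia, with limma adjusted p of 0.0023 each. Without neonatal CD45+ replicate 1 the tumor CD45+ difference was -0.70 and lost the call (limma adjusted p = 0.06), and it also lost it under quantile normalization at -0.40 (limma adjusted p = 0.11) and with blanks as missing at -0.77 (limma adjusted p = 0.33). With blanks as missing the anemia CD45- difference lost the call as well (limma adjusted p = 0.2).

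Hmga2, which encodes an architectural chromatin protein, had 0.144, 0.11 and 0.115 in tumor CD45+ cells and 0.238, 0.183 and 0.0622 in anemia CD45+ cells, against 1.08, 2.55 and 1.07 in neonatal CD45+ cells. The tumor mean was 7.85% and the anemia mean 10.3% of the neonatal mean. The groups did not overlap, and Hmga2 fell by 1.14 ± 0.21 in tumor CD45+ cells and by 1.10 ± 0.21 in anemia CD45+ cells on the log2 scale (limma adjusted p = 0.002 and 9.9e-04). Under quantile normalization the tumor difference was -0.69 and not called (limma adjusted p = 0.089). In CD45- cells it had 0, 0.0389 and 0.011 in tumor and 0.194, 0.33 and 0.0573 in anemia, against 0.776, 0.0932 and 0.299 in neonatal cells. The anemia and neonatal CD45- values overlap, and neither difference passed the test, at -0.42 ± 0.21 for tumor and -0.20 ± 0.21 for anemia (limma adjusted p = 0.47 and 0.71). The tumor and neonatal CD45- libraries did not overlap, and with no minimum and a pseudocount of 0.1 together, an alternative added after the values were seen, the tumor difference was -1.82 and called (limma adjusted p = 0.031).

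Igf2bp3, known for expression in fetal tissues, was at 1.72, 0.516 and 0.41 in tumor CD45+ cells and at 0.203, 0.485 and 1.13 in anemia CD45+ cells, against 17.1, 20.9 and 16.1 in neonatal CD45+ cells. The tumor mean was 4.89% and the anemia mean 3.36% of the neonatal mean, with log2 fold changes of -3.40 ± 0.26 and -3.60 ± 0.26 (limma adjusted p = 1.7e-07 and 5.7e-08). In CD45- cells it was listed at 0 in each tumor library and at 0, 0 and 0.0081 in anemia, against 1.39, 2.58 and 2.1 in neonatal cells. The CD45- differences were -1.58 ± 0.26 for tumor and -1.57 ± 0.26 for anemia (limma adjusted p = 0.0018 each), and with blanks as missing the anemia value of -1.56 was not called (limma adjusted p = 0.073). MDSC had 1.22, 0.437 and 0.0345, a range that overlaps those of tumor and anemia CD45+ cells.

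Igf2bp1 was listed at 0 in each tumor and anemia CD45+ library, against 2.22, 1.18 and 0.889 in neonatal CD45+ cells. In CD45- cells it was at 0 in each tumor library and at 0, 0 and 0.0042 in anemia, against 0.104, 0.0985 and 0.0124 in neonatal cells. Igf2bp2 had 0.0423, 0.186 and 0.0936 in tumor CD45+ cells and 0.129, 0.202 and 0.174 in anemia CD45+ cells, against 0.852, 0.449 and 1.09 in neonatal CD45+ cells. Its CD45- values were 0, 0.00746 and 0 in tumor and 0.2, 0.0773 and 0.0214 in anemia, against 0.508, 0.111 and 0.282 in neonatal cells, where anemia and neonatal overlap. Both genes fell below the minimum of 1 in at least 3 libraries that the main test asks. In a fit of 14264 genes without that minimum, Igf2bp1 fell by 1.24 ± 0.13 in tumor and in anemia CD45+ cells (limma adjusted p = 7.3e-06 and 3.5e-06). In that fit Igf2bp2 fell by 0.69 ± 0.12 in tumor and by 0.61 ± 0.12 in anemia CD45+ cells (limma adjusted p = 0.0017 and 0.0019). Neither was called in CD45- cells, where Igf2bp1 differed by -0.10 ± 0.13 for each comparison and Igf2bp2 by -0.36 ± 0.12 for tumor and -0.23 ± 0.12 for anemia. A pseudocount of 1 flattens values this low. One of 0.1 in that fit was an alternative added after the values were seen. With it, Igf2bp2 was at -1.84 for tumor and called (limma adjusted p = 0.0095) and at -0.97 for anemia and not called (limma adjusted p = 0.18), and Igf2bp1 was at -0.73 and -0.71, without a call (limma adjusted p = 0.19 and 0.17). Among all genes, with the pseudocount of 1 and no minimum, 6.11% were called lower for tumor and 12.1% for anemia in CD45+ cells, and 3.59% and 4.63% in CD45- cells. With 0.1 the CD45- shares were 7.89% and 7.97%.

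Igf2, the fetal growth factor, had 0.0275, 0.0136 and 0.0247 in tumor CD45+ cells and 0.045, 0.033 and 0 in anemia CD45+ cells, against 1.95, 2.7 and 8.8 in neonatal CD45+ cells. In CD45- cells it had 0.0148, 0.0157 and 0 in tumor and 0.0167, 0 and 0 in anemia, against 10.6, 5.33 and 21.2 in neonatal cells. The neonatal libraries vary widely, with means of 4.48 ± 3.76 for the CD45+ fraction and 12.4 ± 8.08 for the CD45- fraction (SD, n = 3 each), and replicate 3 is the highest of both. The tumor CD45+ mean was 0.49% of the neonatal mean. The log2 fold changes were -2.22 ± 0.39 for tumor and -2.21 ± 0.39 for anemia in CD45+ cells (limma adjusted p = 0.0015 and 5.3e-04). They were -3.54 ± 0.39 and -3.55 ± 0.39 in CD45- cells (limma adjusted p = 2.4e-05 and 2.6e-05).

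Mest, which encodes a protein related to alpha/beta hydrolases, had 0.026, 0.00384 and 0.0142 in tumor CD45+ cells and 0.0802, 0 and 0.0596 in anemia CD45+ cells, against 1.49, 2.38 and 2.17 in neonatal CD45+ cells. In CD45- cells it had 0.0259, 0.0551 and 0.0079 in tumor and 0.0299, 0.0638 and 0.118 in anemia, against 3.68, 4.38 and 5.67 in neonatal cells. The lowest neonatal library, at 1.49, was above the highest of the other 15, at 0.118. In tumor-bearing mice the mean was 0.729% of the neonatal one in CD45+ cells and 0.647% in CD45- cells. Mest fell by 1.56 ± 0.17 and 1.51 ± 0.17 on the log2 scale in tumor and anemia CD45+ cells (limma adjusted p = 9.5e-06 and 5.8e-06). It fell by 2.42 ± 0.17 and 2.37 ± 0.17 in tumor and anemia CD45- cells (limma adjusted p = 1.2e-07 and 2.6e-07).

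Plagl1, a zinc finger transcription factor, had 0.0438, 0.148 and 0.399 in tumor CD45+ cells and 0.276, 0.291 and 1.86 in anemia CD45+ cells, against 0.619, 0.75 and 1.1 in neonatal CD45+ cells. The tumor libraries and 2 of the 3 anemia libraries were below each neonatal one, whereas anemia CD45+ replicate 3 was the highest of all 21 libraries and carried the anemia mean. In CD45- cells Plagl1 was listed at 0 in each tumor library and at 0, 0 and 0.00227 in anemia, against 0.723, 0.415 and 0.842 in neonatal cells. It fell below the minimum for the main test. Without that minimum its CD45+ differences from neonatal cells were -0.61 ± 0.23 for tumor and -0.11 ± 0.23 for anemia (limma adjusted p = 0.12 and 0.79), and its CD45- differences were -0.72 ± 0.23 for each (limma adjusted p = 0.1 and 0.08). With a pseudocount of 0.1 in that fit, an alternative added after the values were seen, the CD45- differences were -2.88 for tumor and -2.87 for anemia and were called (limma adjusted p = 0.0018 each), where 7.89% and 7.97% of all genes were called lower.

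The main test, on the 18 libraries of Ter119+CD71+ cells, covered 5 genes (Mest, Hmga2, Lin28b, Igf2bp3 and Igf2). Each of them reached the minimum value through the neonatal libraries, so their count is a description and not evidence for the 9 genes. For tumor against neonatal CD45+ cells 5 were called lower, where 4.41% of the 11192 genes tested were, and for anemia against neonatal CD45+ cells 5 were called lower, where 11.3% were. For tumor against neonatal CD45- cells 4 were called lower, where 2.14% of all genes were, and for anemia against neonatal CD45- cells 4 were, where 3.4% were. The tumor and anemia comparisons share the neonatal libraries and are not independent of each other. Other scalings changed the split of calls over all genes. For anemia against neonatal CD45+ cells it was 1016 higher and 1261 lower, or 1349 higher and 997 lower when libraries were scaled without haemoglobin genes, a scaling under which the median log2 difference of all genes was 0.12, against -0.03 without it. In CD45- cells the split was 45 higher and 239 lower for tumor (101 and 248 under quantile normalization) and 105 higher and 380 lower for anemia (216 and 357 under quantile normalization).

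**Figure D2:**
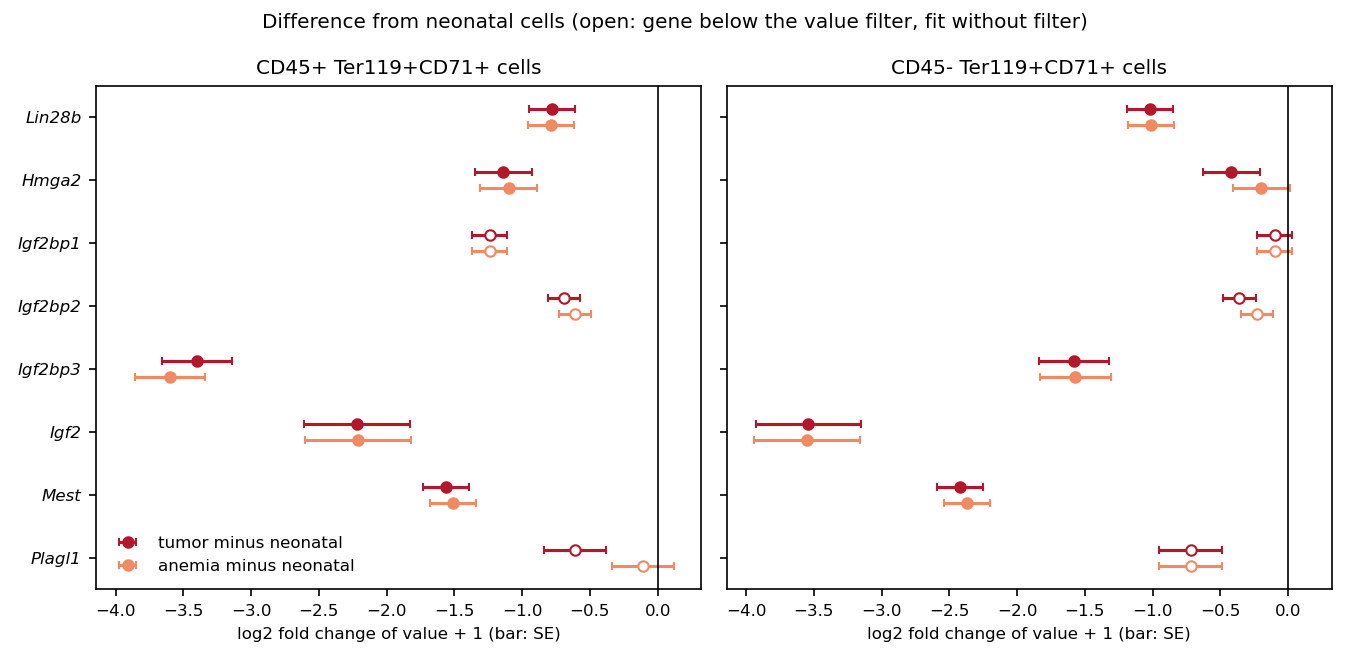
Log2 fold change of value + 1 against neonatal cells for tumor (red) and anemia (orange) in the CD45+ (left) and CD45- (right) fraction, with bars for the SE; open points are genes below the minimum value, taken from the fit without it. The largest differences are -3.60 for Igf2bp3 in anemia CD45+ cells and -3.55 for Igf2 in anemia CD45- cells, and Hmga2 and Igf2bp1 lie between -0.42 and -0.10 in CD45- cells.

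Between tumor and anemia none of the 5 tested genes was called in either fraction. In CD45+ cells 10.7% of all genes were called in either direction, and in CD45- cells 0.152% were. The tumor minus anemia differences in CD45+ cells were 0.20 ± 0.26 for Igf2bp3, 0.01 ± 0.17 for Lin28b, -0.01 ± 0.39 for Igf2, -0.04 ± 0.17 for Mest and -0.05 ± 0.21 for Hmga2. In CD45- cells the widest was -0.23 ± 0.21, for Hmga2. None of the genes reached a value of 1 in at least 3 of the 9 libraries of tumor-bearing mice, so none was tested in the main fit against MDSC. MDSC means were 0.565 for Igf2bp3, 0.148 for Igf2bp2, 0.0614 for Plagl1, 0.0553 for Hmga2 and 0.0372 for Mest, and below 0.01 for Lin28b, Igf2 and Igf2bp1.

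The neonatal cells themselves differed by CD45, and the genes did not go the same way. Igf2bp3 had 17.1, 20.9 and 16.1 in CD45+ cells, against 1.39, 2.58 and 2.1 in CD45- cells, a ratio of means of 8.92 with no overlap. Igf2bp1 averaged 1.43 ± 0.702 (SD, n = 3) in CD45+ and 0.0717 in CD45- cells, a ratio of 19.9, also without overlap, and Hmga2 had a ratio of 4.02. Mest went the other way, at 2.01 ± 0.461 in CD45+ and 4.58 ± 1.01 in CD45- cells, a ratio of 0.44 without overlap. Igf2 had a ratio of 0.362 and Lin28b one of 0.732, and for both the fractions overlapped. CD45+ minus CD45-, the log2 fold changes were 2.67 ± 0.26 for Igf2bp3 (limma adjusted p = 2.5e-07), 0.87 ± 0.21 for Hmga2 (limma adjusted p = 0.0018), -0.88 ± 0.17 for Mest (limma adjusted p = 2.3e-04), -1.31 ± 0.39 for Igf2 (limma adjusted p = 0.0081) and -0.23 ± 0.17 for Lin28b (limma adjusted p = 0.26).

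These CD45 contrasts must be read against a shift of the whole table. In neonatal cells 49.6% of all genes tested were called higher and 10.3% lower in the CD45+ fraction, and the median log2 difference of all genes was 0.75. Under median-ratio scaling that median was 0.09 and under quantile normalization -0.02, and the split of 5552 higher and 1156 lower became 2663 higher and 2808 lower under quantile normalization. Igf2bp3 stayed higher (1.89 and 1.78 under the 2 scalings), and Mest (-1.56 and -1.94) and Igf2 (-2.07 and -2.19) stayed lower, each with the call. Hmga2 lost the call at 0.46 under median-ratio scaling (limma adjusted p = 0.077) and turned to -0.03 under quantile normalization. Lin28b was called lower in CD45+ cells under both scalings, at -0.65 and -1.12 (limma adjusted p = 0.0017 and 1.0e-05). Without neonatal CD45+ replicate 1 the Igf2 value was -0.97 (limma adjusted p = 0.054), and without neonatal CD45- replicate 3 it was -0.85 (limma adjusted p = 0.057).

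In tumor-bearing and anemic mice 1 gene of the 5 passed the same contrast, Igf2bp3, in a table where 50.2% and 47.4% of all genes were called higher. Its CD45+ minus CD45- value was 0.85 ± 0.26 in tumor-bearing mice (limma adjusted p = 0.01), and without tumor CD45+ replicate 1, the highest at 1.72, it was 0.55 and not called (limma adjusted p = 0.071). In mice with anemia it was 0.64 ± 0.26 (limma adjusted p = 0.044), a call that was lost when any 1 of 8 libraries was left out, at 0.41 without anemia CD45+ replicate 3 and at 0.64 to 0.67 without anemia CD45+ replicate 2, any anemia CD45- library or any tumor CD45- library. With the replicate block it was 0.64 with a limma adjusted p of 0.052. Median differences of all genes were 0.75 in tumor-bearing mice and 0.68 in mice with anemia, and 0.10 and 0.07 under median-ratio scaling, where Igf2bp3 in anemia was at 0.49 and not called. The difference between 2 such contrasts was tested as an interaction. For Igf2bp3 it was -1.82 ± 0.37 for tumor minus neonatal, where 1.08% of all genes were called, and -2.03 ± 0.37 for anemia minus neonatal, where 6.92% were, with limma adjusted p of 0.02 and 0.003. Mest was the other gene called, for anemia minus neonatal, at 0.85 ± 0.24 (limma adjusted p = 0.036). In the fit without the minimum value Igf2bp1 was called in both, at -1.14 ± 0.18 and -1.15 ± 0.18 (limma adjusted p = 0.0028 and 0.0011), where 1.63% and 7.52% of all genes were. A pseudocount of 0.1 left the Igf2bp3 terms at -0.08 and -0.58 and the Mest term at 0.92 (limma adjusted p = 0.42), without a call, and with blanks as missing the Mest term of 0.88 was not called either (limma adjusted p = 0.06). The Mest term for tumor minus neonatal was 0.86 ± 0.24 (limma adjusted p = 0.1), but 1.51 under median-ratio scaling and 1.59 under quantile normalization, both called (limma adjusted p = 0.0014 and 8.6e-04). The Igf2 term for anemia minus neonatal was 1.34 ± 0.55 (limma adjusted p = 0.18), and 2.09 and called under each of these scalings (limma adjusted p = 0.022 and 0.02).

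Beyond the 9 genes, other parts of the let-7 pathway were listed. Of 11 genes of LIN28 and let-7 processing, all tested, 1 rose and none fell in tumor against neonatal CD45+ cells, and none rose and 1 fell in anemia against neonatal CD45+ cells. Both of these are Lin28a, the paralog of Lin28b, whose pattern differed from that of Lin28b. Among all genes tested 2.2% were called higher and 4.41% lower for tumor, and 9.08% higher and 11.3% lower for anemia. Lin28a had 6.01, 8.74 and 3.29 in tumor CD45+ cells and 0.415, 0.2 and 0.585 in anemia CD45+ cells, against 1.36, 2 and 2.33 in neonatal CD45+ cells. The log2 fold change was 1.21 ± 0.24 for tumor and -1.04 ± 0.24 for anemia against neonatal cells (limma adjusted p = 0.0039 and 0.0045), and the tumor and neonatal ranges did not overlap. MDSC had 12.3, 15 and 15.5, above each tumor CD45+ library, and the tumor CD45+ minus MDSC value was -1.20 ± 0.30 (limma adjusted p = 0.042). By group, the neutrophil and MDSC marker sum moved with Lin28a, at 11400 to 29900 in tumor CD45+, 545 to 2960 in anemia CD45+, 9720 to 12300 in neonatal CD45+ and 45200 to 69500 in MDSC libraries. The order of libraries was also the same within the tumor CD45+, anemia CD45+ and MDSC groups. In neonatal CD45+ cells it was reversed, with sums of 12300, 10500 and 9720. Tumor CD45+ replicate 3, at 11400, lay within the neonatal range of sums, with Lin28a at 3.29, above each neonatal library. The part of such cells in the Lin28a result was not tested. In CD45- cells Lin28a stayed at or below 0.223. The processing list had no call for tumor against neonatal CD45- cells and 1 for anemia, Zcchc11, which encodes a uridylyltransferase of let-7 precursors, at -1.54 ± 0.37 (limma adjusted p = 0.026). Shares of all genes in these CD45- comparisons were 0.402% higher and 2.14% lower for tumor, and 0.938% higher and 3.4% lower for anemia.

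For the lists that follow, the share of all genes called against neonatal cells was 2.2% higher and 4.41% lower for tumor and 9.08% higher and 11.3% lower for anemia in CD45+ cells. Among CD45- cells the share was 0.402% higher and 2.14% lower for tumor and 0.938% higher and 3.4% lower for anemia. Of the other known let-7 targets, 19 of 21 were tested. In CD45+ cells 3 fell and none rose for tumor, and 7 fell and none rose for anemia, against neonatal cells. Among those that fell for tumor were Il6 (-2.53), which encodes a cytokine, and Ccnd1 (-1.83), which encodes cyclin D1. In CD45- cells 1 fell for tumor (Map4k4, a kinase, at -1.30) and 2 for anemia (Arid3b at -1.17 and Map4k4 at -0.86). The median over the 19 was -0.0029 for tumor and -0.51 for anemia in CD45+ cells, beside -0.02 and -0.03 over all genes. A list of the fetal to adult switch in haematopoiesis, which also holds Lin28a, had 16 of 19 genes tested. For tumor against neonatal CD45+ cells 2 rose, Lin28a and Klf1, an erythroid transcription factor (1.31 ± 0.38, limma adjusted p = 0.048), and for anemia 2 rose and 3 fell, Klf1 rising by 2.16 and Arid3a falling by 1.93. In CD45- cells 1 rose for tumor, Nfix (1.15), and 1 for anemia, Klf1 (1.88), and none fell. Of 20 cell cycle genes 3 fell in anemia CD45+ cells (Cdk1, Bub1 and Bub1b), and none was called in the other 3 comparisons with neonatal cells.

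Of 16 IGF ligands, receptors, binding proteins and signalling genes, 11 were tested. In CD45+ cells 1 rose and 3 fell for tumor, and 1 rose and 7 fell for anemia, against neonatal cells. In CD45- cells 3 fell for tumor and 5 fell for anemia, with none rising. The list's median log2 fold change was -0.62 and -1.51 in CD45+ and -0.94 and -1.17 in CD45- cells for tumor and anemia, beside medians of all genes between -0.07 and -0.01. Igfbp1, Igfbp2 and Igfbp7 were below 1 in each tumor and anemia library and reached the minimum value through neonatal libraries alone. The counts and medians of this list are thus a description and not evidence. Igf1, the postnatal growth factor, had 1.03, 1.34 and 11.7 in tumor CD45+ cells and 2.52, 2.9 and 3.07 in anemia CD45+ cells, against 19, 14.2 and 17.1 in neonatal CD45+ cells. It fell by 2.17 ± 0.49 for tumor and 2.21 ± 0.49 for anemia (limma adjusted p = 0.01 and 0.0035), although tumor CD45+ replicate 3 was close to the neonatal range. Igfbp7, a secreted binding protein, fell in all 4 comparisons, by 1.72 and 1.65 in CD45+ and by 2.55 and 2.33 in CD45- cells. Irs2, the adaptor downstream of the insulin and IGF1 receptors, rose in CD45+ cells, by 1.41 ± 0.37 for tumor and 2.12 ± 0.37 for anemia (limma adjusted p = 0.026 and 4.5e-04), and fell in anemia CD45- cells by 1.71 ± 0.37 (limma adjusted p = 0.012). Igfbp1 and Igfbp2, IGF binding proteins of the liver, were picked after their values were seen. Igfbp1 was listed at 0 in all 15 libraries that are not neonatal, against 3, 1.82 and 87.7 in neonatal CD45+ and 7.59, 2 and 108 in neonatal CD45- cells, with replicate 3 far above the others in both fractions.

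**Figure D3:**
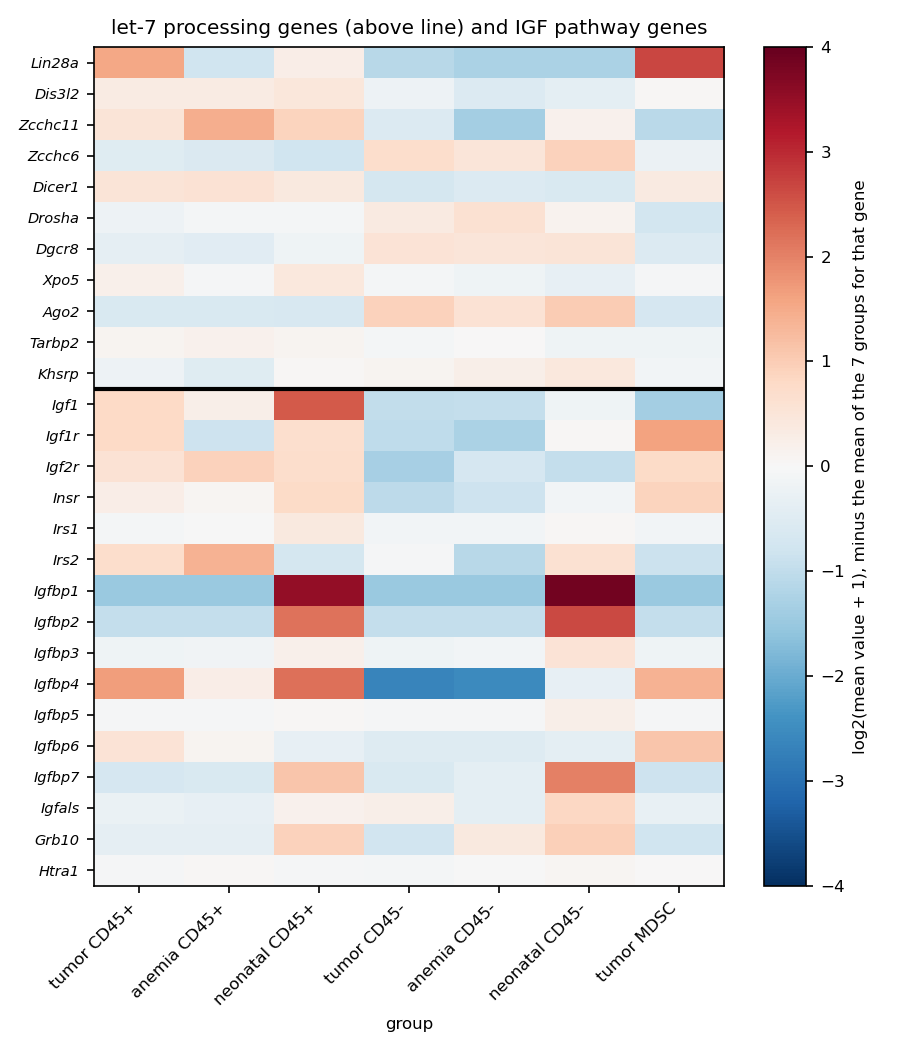
Levels of 11 LIN28 and let-7 processing genes (above the black line) and 16 IGF pathway genes (below it) in the 7 groups, as log2 of the mean of 3 libraries + 1 with the gene's mean over the groups taken away. Igfbp1 is dark red and Igfbp2 a lighter red in the neonatal groups alone, Lin28a is highest in MDSC and tumor CD45+ cells, and most processing genes stay pale.

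Of 34 other imprinted genes in the table, 19 were tested. In CD45+ cells none rose and 4 fell for tumor, and 3 rose and 7 fell for anemia, against neonatal cells, beside 2.2% of all genes higher and 4.41% lower for tumor and 9.08% higher and 11.3% lower for anemia. In CD45- cells 4 fell for tumor and 2 for anemia. Dcn, which encodes the matrix proteoglycan decorin, fell by 0.82, 0.78, 1.27 and 1.16 in the tumor CD45+, anemia CD45+, tumor CD45- and anemia CD45- comparisons. Grb10, an adaptor that restrains insulin and IGF signalling, was lower for tumor in both fractions, at -1.27 ± 0.33 and -1.57 ± 0.33 (limma adjusted p = 0.024 and 0.012). Its level averaged 0.579 in tumor CD45+ and 0.555 in anemia CD45+ cells, against 2.86 in neonatal CD45+ cells, and no library of the first 2 groups reached the neonatal range. Peg10, a paternally expressed gene derived from a retrotransposon, had 0.11, 0.0722 and 0.0445 in tumor CD45+ cells, against 0.345, 0.654 and 1.04 in neonatal CD45+ cells. The list was not uniformly neonatal, since Osbpl5, which encodes a lipid transfer protein, rose by 2.25 ± 0.30 in anemia CD45+ cells (limma adjusted p = 4.7e-05). The list's medians lay at -0.17 and -0.24 for tumor and anemia in CD45+ and at -0.16 and -0.10 in CD45- cells. Dcn and Peg10 were below 1 in each tumor and anemia library and reached the minimum value through neonatal libraries alone. The counts and medians of this list are thus a description too.

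Markers of other cell types moved with the neonatal groups. Of 17 hepatocyte markers 15 were tested, and 11 fell for tumor and 15 for anemia in CD45+ cells, and 14 and 15 in CD45- cells, against neonatal cells. Of the 17, 15 averaged at least 1 in neonatal CD45+ and 16 in neonatal CD45- cells. Only 2 did in tumor CD45+, and 1 each in anemia CD45+, tumor CD45- and anemia CD45- cells. Most thus reached the minimum value through the neonatal libraries, so these counts of falls are a description and not evidence. The summed level of the 17 markers was 36.6 to 180 in tumor CD45+, 12 to 21.2 in anemia CD45+ and 271 to 593 in neonatal CD45+ libraries. In CD45- cells it was 4.33 to 11 in tumor, 1.02 to 4.83 in anemia and 163 to 995 in neonatal libraries. In tumor and anemia CD45+ cells this sum was mostly 1 marker, Trf, at means of 82.4 and 16.5, against 173 in neonatal CD45+ cells. No other hepatocyte marker averaged above 1.55 in tumor CD45+ cells. All 17 had a value in both neonatal groups, whereas 4 in tumor CD45+, 13 in anemia CD45+, 2 in tumor CD45- and 11 in anemia CD45- cells were listed at 0 in all 3 libraries. Alb, which encodes albumin, was among those at 0 in both anemia groups. It had 22.8, 41.2 and 133 in neonatal CD45+ and 72.3, 52.3 and 342 in neonatal CD45- cells. In tumor CD45+ replicate 3, the library with the sum of 180, it was at 0. Igf2 was high in the same libraries, and replicate 3 was the highest for both genes in each neonatal fraction. The 5 genes most like Igf2 over the 21 libraries, by Pearson correlation of log2(value + 1) among genes with a group mean of at least 10, were Serpina1a (0.997), Serpina1c (0.994), Ttr (0.994), Serpina1b (0.994) and Apoa2 (0.991), all known for secretion by the liver. The part of liver cells or their RNA in the Igf2 result was not tested, and in sorted bulk samples fewer cells of a type and less RNA per cell cannot be told apart.

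Macrophage, endothelial and stromal markers moved too. The 10 macrophage markers summed to 199, 151 and 1090 in tumor CD45+ and 159, 212 and 233 in anemia CD45+ cells, against 2150, 1710 and 2720 in neonatal CD45+ cells, with 6 and 10 of the 10 called lower. In CD45- cells they summed to 20.2 to 60.7 in tumor and 24.7 to 49 in anemia, against 141 to 197 in neonatal cells, with 3 of 10 lower in each comparison. No macrophage marker was at 0 in all 3 libraries of any group. Tumor CD45+ replicate 3, at 1090 the highest outside the neonatal groups, had 0.41 of Igf2bp3, the lowest of its group. The tumor and neonatal sums differ in their makeup, however. Vcam1 averaged 247 in tumor CD45+ and 261 in neonatal CD45+ cells, whereas Marco averaged 2.06 and 697 and Cd5l 33.4 and 452. The genes most like Igf2bp3 by the same measure were Dab2 (0.97), an endocytic adaptor, Folr2 (0.95), a folate receptor of macrophages, Cd209f (0.946), Colec12 (0.944), a scavenger receptor, and Cdh5 (0.934), the cadherin of endothelial junctions. Dab2 had 1.73, 1.15 and 1.98 in tumor CD45+ and 0.503, 0.435 and 0.734 in anemia CD45+ cells, against 41.7, 28.7 and 32.2 in neonatal CD45+ cells. Of 9 endothelial markers tested, 5 and 6 fell in CD45+ and 7 and 8 in CD45- cells for tumor and anemia. Among the 13 listed, 7 averaged at least 1 in neonatal CD45+ and 11 in neonatal CD45- cells. Only 4 did in tumor CD45+, and 1 each in anemia CD45+, tumor CD45- and anemia CD45- cells. Some were thus tested through the neonatal libraries alone, and these counts are a description too. All 13 in the table summed to 18.8 to 61.5 in tumor CD45+, 41 to 49.4 in anemia CD45+ and 75.1 to 113 in neonatal CD45+ libraries, and to 1.93 to 3.4 in tumor CD45-, 1.88 to 7.44 in anemia CD45- and 28.8 to 50 in neonatal CD45- libraries. Most of the tumor and anemia CD45+ sums was 1 marker, Pecam1, at means of 23.2 and 40.7, against 24 in neonatal CD45+ cells. Cdh5 averaged 0.188, 0.455 and 36.5 in these groups. Of 6 stromal fibroblast markers tested, 1 rose and 2 fell for tumor and 4 fell for anemia in CD45+ cells, and 4 fell in each CD45- comparison. In neonatal CD45- cells 6 of the 20 listed averaged at least 1, against 1 in tumor CD45- and 1 in anemia CD45- cells. The same limit thus applies to this list. All 20 in the table summed to 32.8 to 72.2 in tumor CD45+, 7.44 to 13.1 in anemia CD45+ and 62 to 192 in neonatal CD45+ libraries, and to at most 6.98 in tumor and anemia CD45-, against 20.2 to 37.2 in neonatal CD45- libraries. In MDSC they summed to 76.6 to 149. Fn1 made up most of the CD45+ and MDSC sums, at means of 36.3 in tumor, 8.42 in anemia and 103 in neonatal CD45+ cells and 89 in MDSC. The other 6 of the 8 genes had no group mean of 10 and were not matched to other genes. All of these correlations share the libraries and their cell mixture, and the part of macrophages or endothelial cells in the Igf2bp3 result was not tested. Of 10 stem and progenitor markers tested, 3 fell for tumor, and 2 rose and 6 fell for anemia, in CD45+ cells, with none called in CD45- cells. All 13 in the table summed to 54.6 to 69.1 in tumor CD45+ and 62.6 to 83.9 in anemia CD45+, against 79.4 to 115 in neonatal CD45+ libraries, and the part of such cells in the Lin28b and Hmga2 results was not tested. Of 7 megakaryocyte markers tested, 3 fell in each CD45+ comparison and none was called in CD45- cells. In anemia CD45+ cells all 8 B cell and all 9 T cell markers rose and 10 of 13 neutrophil and MDSC markers fell, and in tumor CD45+ cells 1 T cell marker rose and none of the others of these 3 lists was called. Erythroid markers gave no such fall, since of 12 tested none fell in any of the 4 comparisons. They leaned the other way, and 1 was called higher in each comparison but that of tumor CD45- cells. Their median log2 fold changes were 0.63 for tumor and 0.96 for anemia in CD45+ cells, and 0.60 and 0.35 in CD45- cells. The medians of all genes were -0.02, -0.03, -0.07 and -0.01 in the same order.

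**Figure D4:**
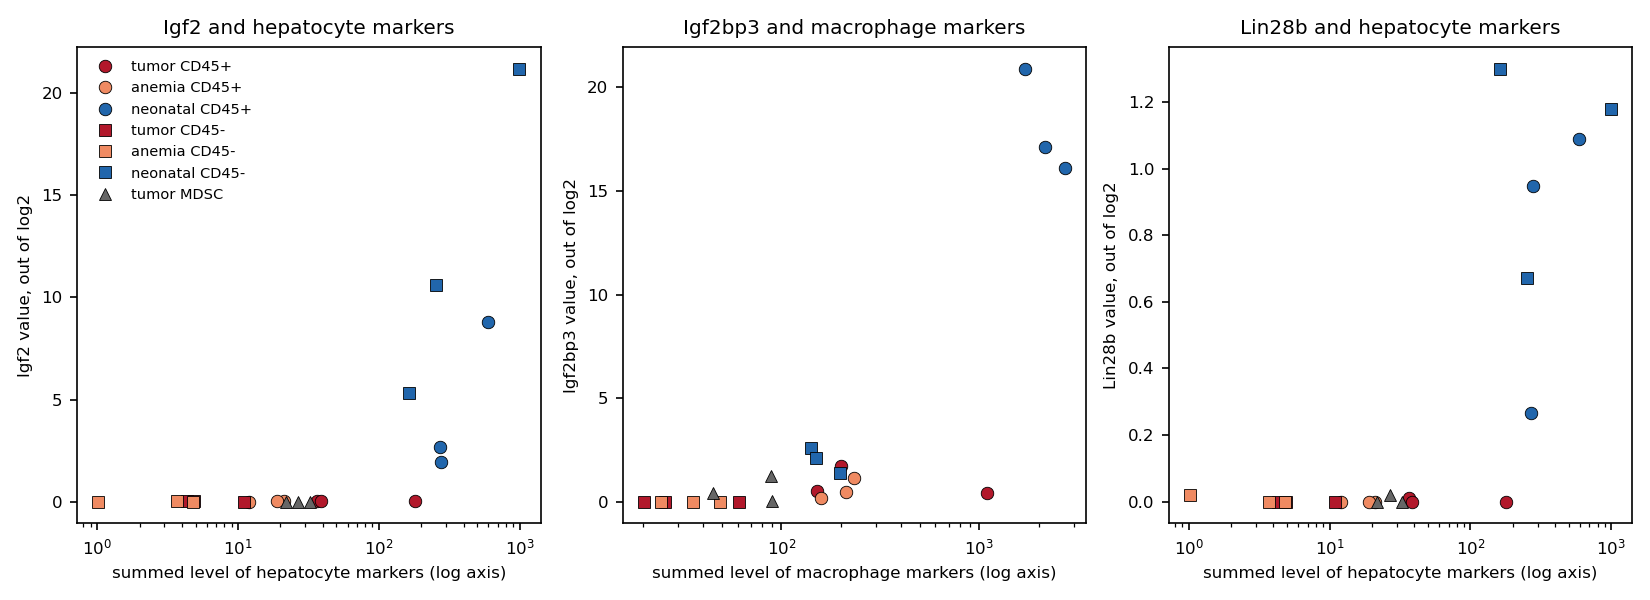
Igf2 against the summed hepatocyte markers (left), Igf2bp3 against the summed macrophage markers (middle) and Lin28b against the summed hepatocyte markers (right), 1 point per library, marker sums on a log axis. Tumor CD45+ replicate 3 has a hepatocyte sum of 180, above the lowest neonatal CD45- library at 163. That tumor library has Alb and Serpina1a at 0, against 52.3 and 5.02 in that neonatal one. The hepatocyte sum of tumor CD45+ cells is mostly Trf (mean 82.4). The other libraries that are not neonatal lie at 38.7 or less. In the middle panel tumor CD45+ replicate 3 has a macrophage sum of 1090 with Igf2bp3 at 0.41, and neonatal CD45- libraries lie at sums of 141 to 197.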

How the data were processed

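RNA-seq of 21 libraries was used. Per the submitters' processing notes, reads were aligned with Bowtie 0.12.2 and the build was mm8. The authors deposited 1 table of log2 expression values per gene, and its scale, quantification tool, annotation and filters are not given in the sources used here. The 23668 blank cells (7.9%) were taken as 0. For 8 repeated symbols 1 entry was kept.

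Values were taken out of the log, and limma 3.58.1 (R 4.3.3, statmod 1.5.0) was run on log2(value + 1) with the trend and robust options and no further scaling. A gene was tested where 3 or more libraries reached a value of 1, which left 11192 in the fit of 18 Ter119+CD71+ libraries (12 comparisons) and 10251 in the fit of 9 libraries of tumor-bearing mice. Two-sided p-values had Benjamini-Hochberg adjustment over the whole fit (threshold 0.05), and SE are those of the moderated fit. The procedure was tested on simulated data.

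The members and gene lists were chosen with earlier results of these data known. Genes named outside the members were up to 4 per list and comparison by adjusted p, the 5 most like Igf2 and Igf2bp3, and the genes said to be picked later. Alternatives changed the pseudocount, the minimum value, the scaling, blanks, the libraries of the fit, the replicate block and each library in turn.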

Additional observations from a re-analysis of the deposited data

Results flagged for a closer look

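A test of the difference between 2 CD45 contrasts (an interaction term) called Igf2bp3 and Mest. For Igf2bp3 the CD45+ minus CD45- contrast of tumor-bearing mice minus that of neonates was -1.82 ± 0.37 (limma adjusted p = 0.02), and the contrast of mice with anemia minus that of neonates was -2.03 ± 0.37 (limma adjusted p = 0.003). All 3 contrasts of Igf2bp3 have the same sign. Both terms rest on the pseudocount, since at 0.1 they were -0.08 and -0.58 and not called, and the tumor term was -1.22 and not called under median-ratio scaling. The tumor term also lost the call in 7 of 18 fits that left out 1 library. These were tumor CD45+ replicate 2 (-1.70), any tumor CD45- library (-1.82 each), neonatal CD45+ replicate 1 (-1.85) or 2 (-1.72), and neonatal CD45- replicate 1 (-1.66).

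For Mest the CD45 contrast of mice with anemia was 0.85 ± 0.24 above that of neonates (limma adjusted p = 0.036), where the contrast was -0.03 in anemia and -0.88 in neonates. The like term for tumor-bearing mice was 0.86 ± 0.24 and was not called (limma adjusted p = 0.1), but it was called at 1.51 under median-ratio scaling, 1.59 under quantile normalization, 1.03 with scaling factors from genes other than haemoglobin and 0.50 at a pseudocount of 4. The anemia term lost the call at 0.92 with a pseudocount of 0.1, at 0.88 with blanks as missing, at 0.72 without neonatal CD45+ replicate 1 or neonatal CD45- replicate 3, and at 0.82 to 0.88 without any single anemia library, tumor CD45- replicate 1 or 2, or neonatal CD45- replicate 2.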

How the results depend on the processing

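Each library has unknown depth, low values rest on an unknown number of reads, and 3 libraries per group limit each call. Of 18 called differences of tumor or anemia from neonatal cells, 491 recomputations gave 485 with the call kept, 6 without it and 0 with the direction turned. This count and the next leave out recomputations in which the gene fell below the minimum or gave no test. Lin28b and Hmga2 thus had 15 fits that left out 1 library, against 18 for Igf2, Igf2bp3 and Mest. Many of these fits left out a library of a group that was not compared, so the counts overstate how firm a call is. Over all 37 gene results, 932 of 1003 recomputations kept direction and side of the threshold, 53 lost a call, 16 gained one and 2 turned direction, which were Hmga2 in the neonatal CD45 contrast under quantile normalization (-0.03) and Lin28b in the anemia interaction without neonatal CD45+ replicate 2 (-0.00011; -0.00011 to 0.36 over fits that left out 1 library). The causes were not tested.

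Counts of called genes changed as follows. With a minimum of 5, which leaves 2 genes tested, all 4 comparisons with neonatal cells and the neonatal CD45 contrast gave 2, the anemia CD45 contrast 0 and the anemia interaction 1. Blanks as missing gave 2 in both CD45- comparisons with neonatal cells, 0 in the tumor and anemia CD45 contrasts, 0 in the tumor interaction and 1 in the anemia interaction. Quantile normalization gave 3 for tumor against neonatal CD45+ cells, 0 in the tumor and 2 in the anemia CD45 contrast (both lower in CD45+ cells, where the 1 main call, Igf2bp3, was higher), and 3 and 4 in the tumor and anemia interactions. A pseudocount of 4 gave 0 in the tumor and anemia CD45 contrasts and 2 in the tumor interaction, and one of 0.1 gave 0 in both interactions. No minimum gave 2 in the anemia CD45 contrast, 2 and 4 in the interactions and 1 for tumor CD45- cells against MDSC (Igf2bp2, lower). Of all genes 51.6%, 1.63%, 7.52% and 44.4% were called in these. With no minimum and a pseudocount of 0.1 together, added after seeing the data, the counts were 7 for tumor against neonatal CD45- cells, 2 in the tumor and anemia CD45 contrasts, 1 in the anemia interaction and 2 for tumor CD45- cells against MDSC (Igf2bp2 and Igf2bp3, both lower). Under that rule 8.62% of all genes were called for tumor against neonatal CD45- cells. The shares were 56.5% and 54.3% in the tumor and anemia CD45 contrasts, 4.29% in the anemia interaction and 48.9% against MDSC. Median-ratio scaling and 1 fit of all 21 libraries gave 0 in the anemia CD45 contrast, and scaling without haemoglobin genes gave 2 in the tumor interaction. In this section the share of all genes called is given only for the rules without a minimum. The counts under the other settings, and those that leave out 1 library, are thus not set against a background. They show only how far the main counts moved.

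Leaving out 1 library gave counts of 3 to 5 for tumor and for anemia against neonatal CD45+ cells, 3 to 4 for both CD45- comparisons, 0 to 1 for the tumor and anemia CD45 contrasts, 2 to 4 for the neonatal one, 0 to 1 for the tumor interaction and 1 to 3 for the anemia interaction, and 0 for the others. Replicate numbers are shared between groups, but the labels tie them to no batch or animal, and not every same-numbered pair deviated together. Deviations of same-numbered libraries correlated at -0.171 to 0.411 (median 0.112), against a median of -0.098 for other numbers, and 10 of 18 libraries correlated best with their own number, a hint from the data and not the design. The replicate block gave 0 in the anemia CD45 contrast and changed no other count by over 1.5 times.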
